A study of Oryza sativa with 2 samples.

Results

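The genes described here are the dirigent loci and the mannose-binding lectin loci of rice (*Oryza sativa*), followed in leaf RNA of the mutant *wlp2s* and of wild-type plants. They were taken by the wording of the deposited annotation alone, as loci described as dirigent, mannose-binding lectin, PYK10-binding or jacalin and not as a kinase. The rule reads no expression value. The rule found 47 of the 26715 loci in the expression table, 35 of them dirigent and 12 of them lectin loci. The word jacalin occurs in no annotation, and the PYK10 wording gave 1 locus, which is counted with the lectins.

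The library called mutant here is headed *wlp2s* in the expression table, while its sample title names no allele and a second deposited table, not used here, heads the mutant wlp1. The mutant came from an EMS (ethyl methanesulfonate) mutagenised population of the *japonica* cultivar Zhonghua11. The wild-type library came from leaves of unmutagenised Zhonghua11. Seedlings of both genotypes grew in a chamber at a constant 32 °C with 12 h of light and 12 h of dark at 300 μmol m–2 s–1, so the high temperature is shared by both libraries and is not itself compared. How many plants were pooled in a library is not given in the sources used here. The study asked whether raised reactive oxygen species in the mutant go along with altered expression of nuclear genes under heat. Each genotype has 1 library, so no difference has a replicate check and none carries a p-value.

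Dirigent proteins have no oxidising activity of their own. They hold the phenoxy radicals that laccases and peroxidases make from monolignols and steer their coupling to one stereoisomer, which yields lignans such as pinoresinol, and in Arabidopsis some members are needed for ordered lignin deposition in the root. Mannose-binding lectins of the jacalin type are small sugar-binding proteins that many plants produce in response to wounding, pathogens or abiotic stress. In Arabidopsis, PYK10-binding protein 1 is a lectin of this type that associates with the beta-glucosidase PYK10 when damaged tissue releases it. In grasses, a dirigent domain and a jacalin-type lectin domain also occur together in single proteins, so the names of the annotation may divide genes that are related.

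Most of these loci were close to silent in both libraries. Their median level was 0.436 RPKM (read count scaled to transcript length and library size) in the mutant and 0.189 RPKM in wild-type, against 3.89 and 3.79 RPKM over all loci. The loci at the member medians had 2 counts in the mutant and 3 counts in wild-type, too few to read a difference from. Levels below are RPKM, which allow genes to be compared per length, and counts are given beside them because they set the precision. A difference was computed only where the mutant, wild-type or both reached 1 RPKM. This filter was passed by 17 of the 47 loci (36.2%), against 69.8% of all loci. Of the 35 dirigent loci 11 passed, and of the 12 lectin loci 6 passed. The 30 loci below the filter had at most 7.5 counts in either library, and differences among them were not detectable at this depth. The table lists no locus at 0 in both libraries, and members of either family without a read in these leaves were not analysed here.

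Depth was 9327778 counts in the mutant and 9080323 counts in wild-type. The mutated gene *WLP2* (LOC_Os01g63220) stood at 9.10 RPKM in the mutant and 6.61 RPKM in wild-type (1.38-fold higher, interval 1.09 to 1.74). It was thus higher and not lower in the library labelled *wlp2s*, whereas the study reported less *WLP2* mRNA in *wlp2s* by qRT-PCR at normal and high temperature. The study describes the *wlp2s* allele as a single nucleotide change. The value here runs opposite to the direction that the study measured for this allele, and the label was not tested in another way. This value gives no support to the label, and every direction given for the mutant rests on the label alone. The tissue label was checked with annotation words for leaf mesophyll (antenna proteins and the small subunit of Rubisco), whose 19 loci summed to 13564 RPKM in the mutant and 14298 RPKM in wild-type. Marker words for root, lignifying xylem, epidermis and dividing cells gave sums of 242, 18.8, 167 and 568 RPKM in the mutant, against 267, 18.6, 137 and 555 RPKM in wild-type. The epidermal list, which consists of 3-ketoacyl-CoA synthases of wax synthesis, was 1.20-fold higher in reads (1.14 to 1.26). Reads of the root list were 0.902 of wild-type (0.867 to 0.939) and those of the mesophyll list 0.957 (0.950 to 0.964). The intervals of the xylem and dividing-cell lists include 1. The part of cell type in any result here was not tested. In a whole leaf, fewer cells of a type and less RNA per cell cannot be told apart.

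Differences are mutant minus wild-type on the scale of log2(RPKM + 1), which understates the changes of weakly expressed genes, and those of 1 or more in either direction are called past the size rule. A fold is the ratio of the counts after scaling to library totals, given with an exact 95% binomial interval for counting error alone. By the size rule 1 of the 17 loci was higher in the mutant and 2 were lower, beside 1.79% of all 18639 loci that were higher and 1.01% that were lower. The other 14 did not pass. The 3 loci past the rule are LOC_Os03g28160 and LOC_Os08g28790, both lower, and LOC_Os12g09720, which was higher. Each of these 3 reached 1 RPKM in 1 library only, as did 8 of the 17 loci, against 7.77% of all loci past the filter. A locus that enters in this way has to differ, so the number of members past the rule is not evidence of a change in the families.

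**Figure D1:**
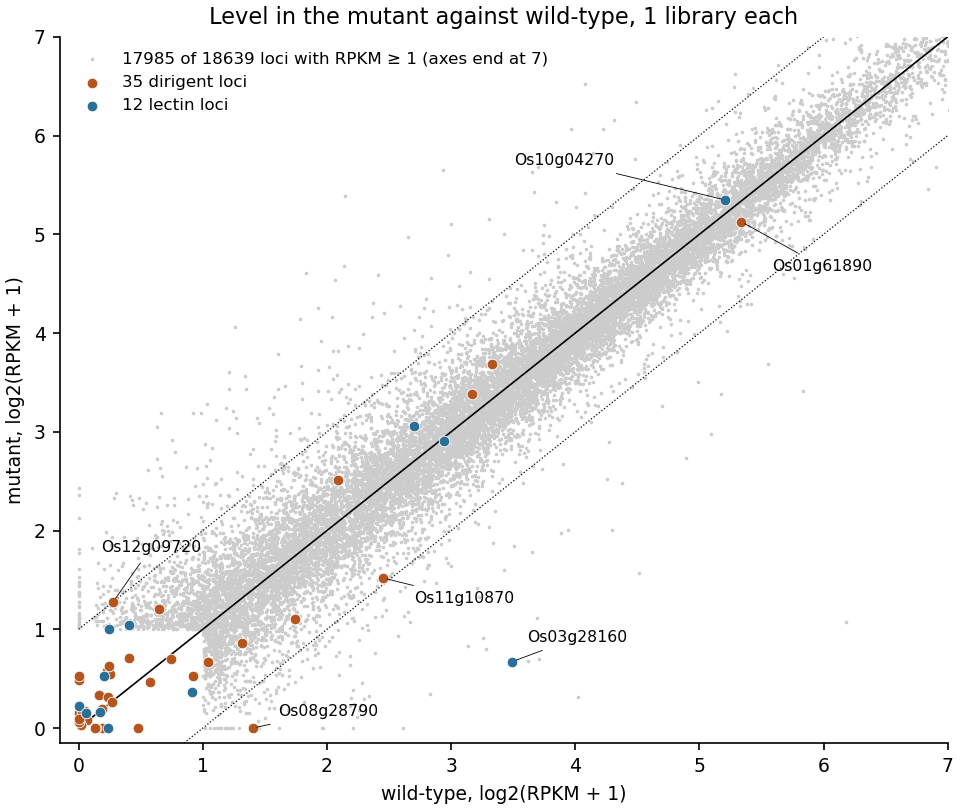
Level of each locus in the mutant (y axis) and in wild-type (x axis), as log2(RPKM + 1), 1 library each. Grey points are all loci that reach 1 RPKM in either library, cut at 7 on both axes, brown points the 35 dirigent loci and blue points the 12 lectin loci, named without the prefix LOC_. The solid line marks equal levels and the dotted lines a difference of 1. Most members lie in the lower left corner, and LOC_Os03g28160 lies far below the line at 0.595 RPKM in the mutant and 10.3 RPKM in wild-type.

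The clearest difference among the lectins was in LOC_Os03g28160, annotated as PYK10-binding protein 1, a carbohydrate-binding partner of a defence beta-glucosidase in Arabidopsis. It had 5 counts in the mutant and 84 counts in wild-type, or 0.595 RPKM and 10.3 RPKM, and was 17.3-fold lower in the mutant (7.11 to 54.5). Its difference of -2.82 ranked 6 from the bottom among the 18639 loci. Both of its transcript models, of 856 and 952 bases, had 2.5 counts in the mutant and 42 counts in wild-type, an even division of the reads of the locus. In wild-type it was the second most abundant lectin of the set, while in the mutant 5 other lectin loci had a higher RPKM.

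The locus next to it by number, LOC_Os03g28170, has no annotation and showed the same direction. It had 1 count in the mutant and 28 counts in wild-type, a ratio of 28.8-fold lower (4.76 to 1176). It is no member and was singled out after its values were seen. Both loci have whole-number counts, so no division of reads between them shows. The strand of the reads is not given in the sources used here, and reads of overlapping transcripts cannot be told apart. Next in number, LOC_Os03g28175 and LOC_Os03g28180 had 0 counts in the mutant and 1 and 4 counts in wild-type, too few to compare. Within 10 locus numbers on either side 4 neighbours passed the filter, and the 3 besides LOC_Os03g28170 had differences from -0.33 to 0.96.

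The other lectin loci with reads stayed within 1 on the log2 scale. LOC_Os10g04270, the most abundant of them with a single model of 432 bases, had 160 counts in the mutant and 141 counts in wild-type, or 39.7 and 35.9 RPKM, and its interval includes equal levels (1.10-fold, 0.875 to 1.40). LOC_Os05g43240 had 144 counts in both libraries, spread nearly evenly over its 3 models, and the interval of its fold runs from 0.767 to 1.24. LOC_Os04g22900 had 284 counts in the mutant and 207 counts in wild-type, and was 1.34-fold higher (1.11 to 1.61). For all 3 of these loci the interval excludes a 2-fold difference in either direction.

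The other lectin loci past the filter passed through the mutant library alone, and their ratios rest on few reads. LOC_Os12g14440 had 11.3 counts in the mutant and 2 counts in wild-type, or 1.00 and 0.182 RPKM (5.52-fold, 1.17 to 49.7). LOC_Os01g24710, with 4 transcript models, had 10 counts in the mutant and 3 counts in wild-type, and its interval includes 1 (3.24-fold, 0.836 to 18.3). The remaining 6 lectin loci had at most 3 counts in any library.

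**Figure D2:**
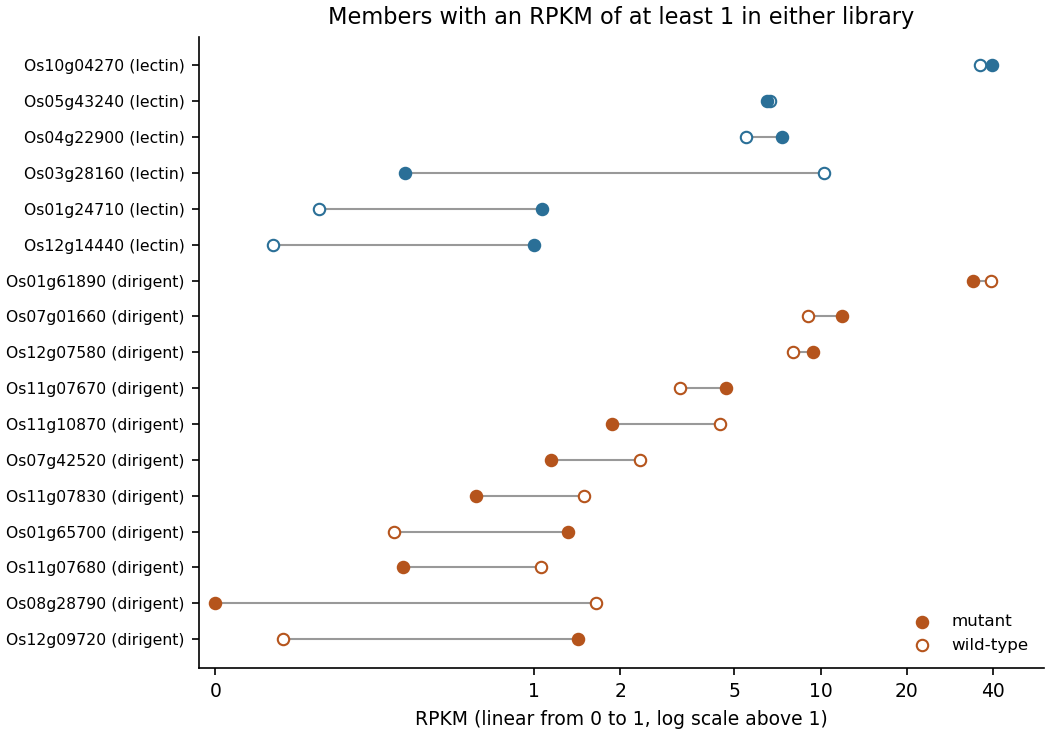
RPKM (x axis, linear up to 1 and logarithmic above) of the 17 members that reach 1 RPKM in either library, the lectin loci (blue) above the dirigent loci (brown), each sorted by mean level. Filled points are the mutant and open points wild-type, 1 library each. The abundant members have nearly coinciding points, such as 39.7 and 35.9 RPKM for LOC_Os10g04270, and the wide gaps belong to LOC_Os03g28160 and to loci near 1 RPKM.

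Among the dirigent loci other than LOC_Os01g61890, described further on, those with the most reads differed little. LOC_Os07g01660 had 148 counts in the mutant and 110 counts in wild-type, or 11.9 and 9.05 RPKM, and was 1.31-fold higher (1.02 to 1.69). LOC_Os12g07580 stood at 9.41 RPKM in the mutant and 8.01 RPKM in wild-type, with 76 and 63 counts and an interval that includes 1 (0.830 to 1.67). LOC_Os11g07670 had 46 counts in the mutant and 31 counts in wild-type, again with 1 inside the interval (1.44-fold, 0.896 to 2.36).

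Dirigent loci with fewer reads differed in both directions. LOC_Os11g10870 had 18 counts in the mutant and 42 counts in wild-type, or 1.87 and 4.47 RPKM. It was 2.40-fold lower (1.35 to 4.42), and its difference of -0.93 is just short of the size rule. LOC_Os08g28790 had 0 counts in the mutant and 12 counts in wild-type. Against a floor of 3 counts in the mutant library it was at least 4.11-fold lower, while the counting interval, which also covers the error of the wild-type count, begins at 2.85-fold lower. On the log2(RPKM + 1) scale its difference was -1.404, which becomes -0.41 with a pseudocount of 5 and then no longer passes. LOC_Os07g42520 had 9 counts in the mutant and 18 counts in wild-type, and LOC_Os11g07830 had 9 and 16, both with intervals that include 1. The same holds for LOC_Os11g07680, with 4 counts in the mutant and 7 in wild-type, and for LOC_Os01g65700, with 12 in the mutant and 5 in wild-type.

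LOC_Os12g09720 was the one dirigent locus past the size rule in the upward direction, and only just, with a difference of 1.00. It had 10.3 counts in the mutant and 1.5 counts in wild-type, or 1.43 and 0.213 RPKM (6.71-fold, 1.04 to 45.7). With a pseudocount of 5 its difference was 0.30. Its counts are fractions, and their source is described with the divided reads below.

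**Figure D3:**
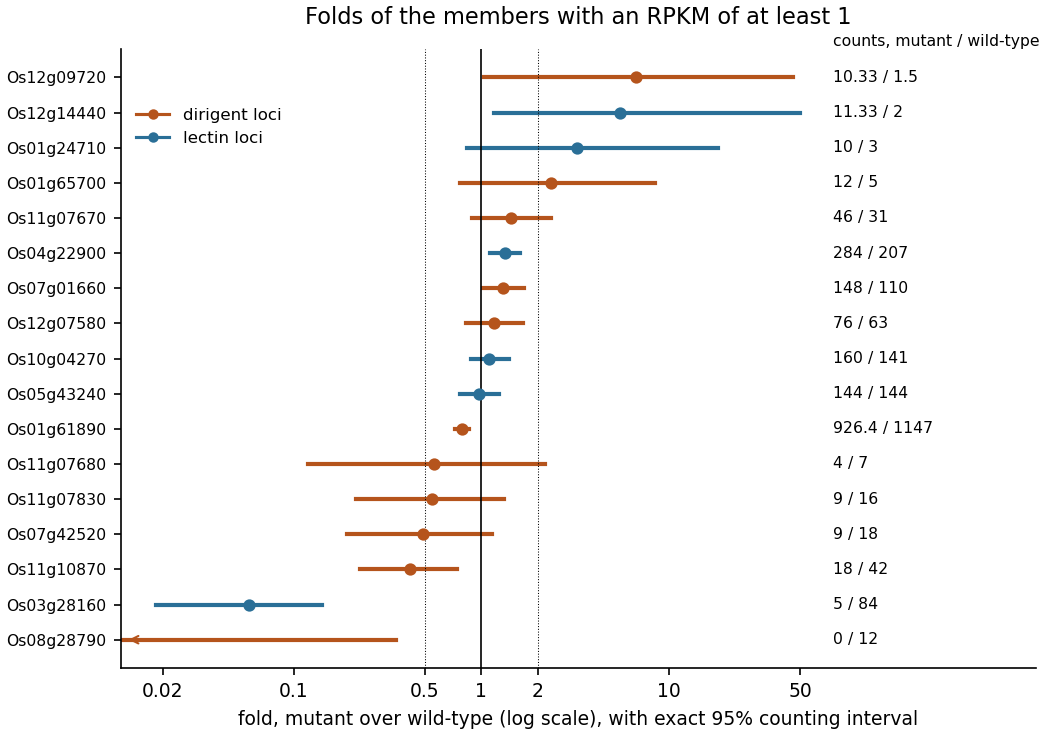
Fold of the mutant over wild-type (x axis, logarithmic) for the 17 members that reach 1 RPKM in either library, sorted by fold. Points are ratios of counts scaled to library totals, horizontal lines exact 95% counting intervals, the arrow a mutant count of 0, the dotted lines a 2-fold difference, and the numbers at the right the counts of the mutant and of wild-type. The intervals lie entirely below 1 at LOC_Os08g28790, LOC_Os03g28160, LOC_Os11g10870 and LOC_Os01g61890.

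Read by counting intervals in place of the size rule, 4 of the 17 loci lay above 1 and 4 lay below it, while 9 included it. Over all loci past the filter the interval lay above 1 for 16.1% and below 1 for 15.4%, so such calls are common in these 2 libraries. The 4 above are LOC_Os12g09720, LOC_Os12g14440, LOC_Os04g22900 and LOC_Os07g01660, and the first 2 of these share reads. Those first 2, and LOC_Os03g28160 and LOC_Os08g28790 below 1, reached 1 RPKM only in the library where they were higher. Loci that entered through 1 library were 8 of the 17 members, against 7.77% of all loci. The number of interval calls is therefore not evidence of a change in the families. The median difference was -0.21 over the 11 dirigent loci and 0.25 over the 6 lectin loci that passed the filter, beside 0.00181 over all loci. Both medians depend on the filter. With the filter at 5 RPKM the medians were 0.21 over 3 dirigent loci and 0.053 over 4 lectin loci, and over all 35 dirigent loci without a filter the median was 0.057.

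Most dirigent reads came from a locus that differs from the others in length and annotation. LOC_Os01g61890 held 71.2% of all dirigent counts in the mutant and 77.3% in wild-type. Its 4 transcript models have 1449, 2199, 4288 and 5479 bases, while the longest model of a locus has a median of 882 bases over the 47 members and of 1606 bases over all loci. It is also the one member to which the deposited annotation assigns the GO term DNA binding, and it lacks the term response to stress that 28 of the 35 dirigent loci carry. Its level summed over models was 33.9 RPKM in the mutant and 39.4 RPKM in wild-type, a difference of -0.21 on the log2 scale. Its counts, in which long models weigh more, were 926 in the mutant and 1147 in wild-type, a larger difference of 1.27-fold lower (1.17 to 1.39).

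The models of LOC_Os01g61890 did not share this difference evenly. The models of 4288 and 5479 bases stood at 7.08 and 5.64 RPKM in the mutant and at 10.2 and 8.05 RPKM in wild-type, with folds of 0.692 (0.591 to 0.806) and 0.701 (0.599 to 0.815). The models of 1449 and 2199 bases stood at 11.5 and 9.73 RPKM in the mutant and at 10.9 and 10.2 RPKM in wild-type, and their intervals include 1. Reads were divided between the models, so these values are not independent.

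With LOC_Os01g61890, total dirigent reads were 1301 counts in the mutant and 1483 counts in wild-type, a fold of 0.854 (0.792 to 0.921). Without it they were 374 counts in the mutant and 337 counts in wild-type, and the fold of 1.08 (0.933 to 1.26) includes equal levels. Total lectin reads were 622 counts in the mutant and 588 counts in wild-type (1.03-fold, 0.918 to 1.15). Leaving out LOC_Os03g28160 was added after the data were seen, and omitting so low a locus has to raise the lectin total. The total was then 1.19-fold higher in the mutant (1.06 to 1.34). Without LOC_Os04g22900 the lectin total was 0.864 of wild-type (0.744 to 1.00). This locus, whose single model has 4144 bases, supplied 45.7% of the lectin counts in the mutant and 35.2% in wild-type.

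The numbers in the locus IDs place the members on 10 chromosomes. Of the 35 dirigent loci, 12 lie on chromosome 7 and 11 on chromosome 11, whereas the 12 lectin loci are scattered over 7 chromosomes with at most 3 on any. Joining members that follow each other within 20 locus numbers gave 8 groups with 27 of the 47 loci. Of these groups, 7 are purely dirigent, and the eighth joins the lectin locus LOC_Os12g09700 with the dirigent locus LOC_Os12g09720 on chromosome 12.

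In the 3 groups of chromosomes 7 and 11 with over 20 counts, 1 locus carried most of the reads, while in both other groups of chromosome 7 every locus had at most 2.33 counts. In the group LOC_Os07g01600 to LOC_Os07g01660, the last locus had 148 counts in the mutant and 110 counts in wild-type, and the other 2 had at most 5. In the group LOC_Os11g07670 to LOC_Os11g07830, 5 loci had 62 counts in the mutant and 55 counts in wild-type, and 46 and 31 of these belonged to LOC_Os11g07670. The group LOC_Os11g10790 to LOC_Os11g10870 had 27 counts in the mutant and 47 counts in wild-type (0.559-fold, 0.335 to 0.917), and its difference came from LOC_Os11g10870, because the other 4 loci had 9 counts in the mutant and 5 in wild-type.

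**Figure D4:**
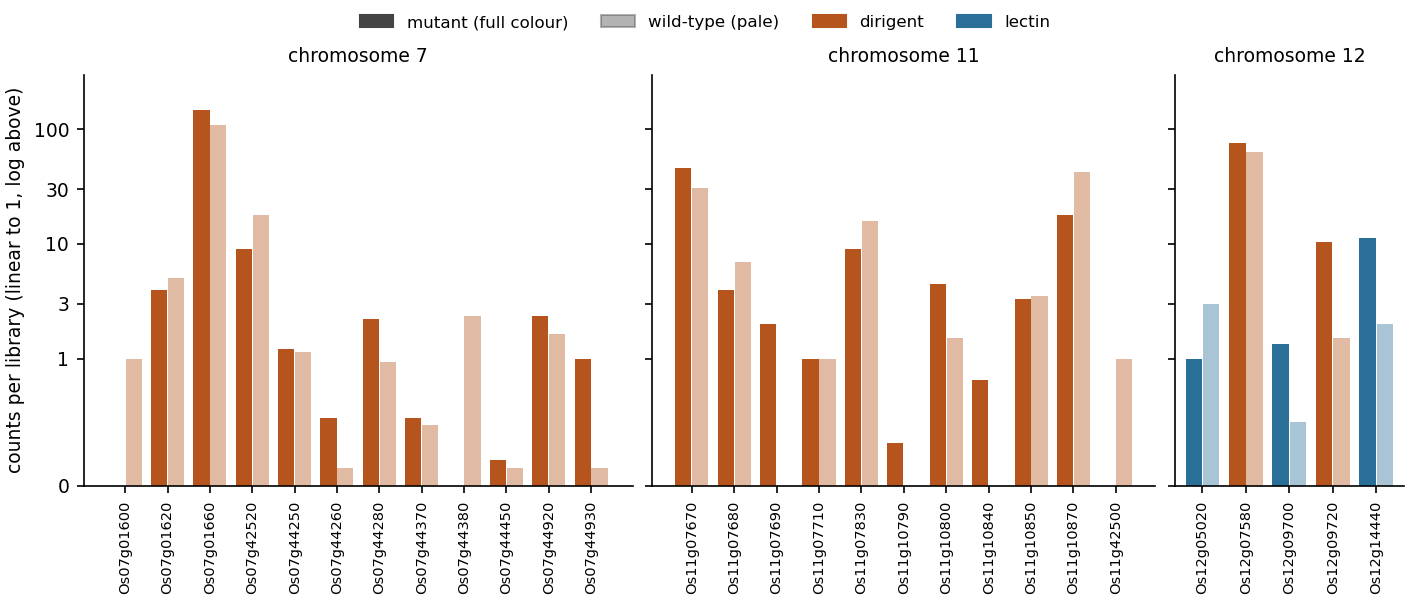
Counts per library (y axis, linear up to 1 and logarithmic above) of the members on chromosomes 7, 11 and 12 in the order of their locus numbers, named without the prefix LOC_. Full colours are the mutant and pale colours wild-type, 1 library each, brown for dirigent and blue for lectin loci. In the dirigent groups with over 20 counts 1 locus carries most of the reads, such as LOC_Os07g01660 with 148 and 110 counts, and several neighbours have fractional counts below 1.

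Fractional counts mark reads that were divided among loci or models. They occurred at 18 of the 47 loci, and for 17 of these the counts of a small set of members added up to whole numbers in both libraries (tolerance 0.001). These sets were found after the values were seen. The 8 loci from LOC_Os07g44250 to LOC_Os07g44930 together had 8 counts in the mutant and 7 counts in wild-type (1.11-fold, 0.353 to 3.60), with at most 2.33 at any locus. The 4 loci from LOC_Os11g10790 to LOC_Os11g10850 had 9 and 5, and the pair LOC_Os03g17220 and LOC_Os10g25900 had 8 and 3, both with intervals that include 1.

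The last of these sets crosses the line between the names. The lectin loci LOC_Os12g09700 and LOC_Os12g14440 and the dirigent locus LOC_Os12g09720 had 1.33, 11.3 and 10.3 counts in the mutant and 0.5, 2 and 1.5 counts in wild-type, which add up to 23 counts in the mutant and 4 counts in wild-type. Since their fractions complete each other, the 3 loci are read as 1 result. As a set they were 5.60-fold higher in the mutant (1.91 to 22.3). LOC_Os12g09720 and LOC_Os12g14440 passed the filter through the mutant library alone, and the set was formed after its values were seen. Its interval is therefore no support for a difference. How many of the 3 loci gave rise to the reads cannot be told apart from these counts.

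The dirigent loci carry stress terms in the deposited GO annotation more often than the lectin loci do. All 12 lectin loci carry only the general terms molecular function, cellular component and biological process. The terms therefore do not compare the 2 families. Response to stress is given for 28 of the 47 members (59.6%), all of them dirigent, and for 10.99% of all loci. Secondary metabolic process is given for 16 members, again all dirigent, and for 1.37% of all loci. Total reads of these 28 and 16 loci did not differ beyond counting error (1.05-fold, 0.899 to 1.22, and 1.11-fold, 0.942 to 1.31). The term cell wall is given for LOC_Os07g01660, LOC_Os11g07670, LOC_Os11g07690 and LOC_Os11g07830. Together they had 205 counts in the mutant and 157 counts in wild-type (1.27-fold, 1.03 to 1.57). Most of these, 148 in the mutant and 110 in wild-type, belong to LOC_Os07g01660, so this total largely repeats that locus. LOC_Os11g07830 pointed the other way at 9 and 16 counts. A test of these terms was not made.

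Among the enzymes that feed or follow the step at which dirigent proteins act, laccases and 4-coumarate:CoA ligases had loci past the size rule. Over all loci 1.79% were higher and 1.01% lower by this rule, and the lists are too short to set against these shares. Some totals differed beyond counting error. Laccases, which can make the radicals that are coupled, had 13 loci, of which 4 passed the filter, 1 higher and 1 lower by the size rule, and total reads of 103 counts in the mutant and 101 in wild-type. Pinoresinol reductases, which act on the product of the coupling, had 5 loci with 0 past the rule and total reads of 0.909 of wild-type (0.849 to 0.973). Of the monolignol enzymes, cinnamoyl-CoA reductases had 5 loci past the filter and cinnamyl alcohol dehydrogenases 7, with 0 past the size rule in both lists, while of 5 loci of 4-coumarate:CoA ligase 1 was lower.

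Total reads of cinnamyl alcohol dehydrogenase, which makes the monolignols, were 1.47-fold higher in the mutant (1.399 to 1.544). This came mainly from LOC_Os09g23550, at 142 RPKM in the mutant and 73.0 RPKM in wild-type (1.94-fold, 1.82 to 2.08, divided reads). Total reads of cinnamoyl-CoA reductase were 1.22-fold higher (1.16 to 1.29), with LOC_Os09g25150 at 174 RPKM in the mutant and 139 RPKM in wild-type. The proteins of family UPF0497, to which the membrane proteins of the Casparian strip belong in Arabidopsis, had 28 loci with 21 past the filter and 0 past the size rule.

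Among other proteins that bind or cleave sugars, the 32 beta-glucosidase loci, the class to which PYK10 belongs, had 28 loci past the filter, 1 higher and 1 lower by the size rule, with a median difference of 0.01. LOC_Os04g39880 stood at 31.0 RPKM in the mutant and 14.8 RPKM in wild-type (2.07-fold, 1.76 to 2.44, divided reads). LOC_Os01g67220 stood at 39.5 RPKM in the mutant and 77.8 RPKM in wild-type (1.97-fold lower, 1.80 to 2.16), just short of the size rule. The lectins of other families without a kinase domain, of the concanavalin A and curculin types, had 3 loci, of which 2 passed the filter with differences of -0.16 and 0.08.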

How the data were processed

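Leaf RNA was sequenced as single-end reads on an Illumina instrument. TopHat, Cufflinks and Cuffdiff are named in the submitters' notes with neither version nor role. The counting tool, genome build and annotation release are not given in the sources used here. The authors deposited estimated counts per transcript model, not normalized and in part fractions, and RPKM values, in which each count is divided by model length and library total. Lengths were read back from this relation. A second deposited table holds the authors' fold changes, P-values and FDR and was not used.

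Models were summed to loci here. Fractional counts were rounded for the exact binomial (Clopper-Pearson) intervals, which cover counting error only, since reads carry no molecular identifiers. With 1 library per genotype no test was made. Named members are those past the size rule, the 6 of each family with the highest mean RPKM, and any at 0 in one library with at least 10 counts in the other. Up to 2 loci per pathway list are named. Further members are named where a count of loci, an interval, a GO term or shared reads is described. Members and lists were chosen with earlier results of these data known, and counting-interval calls, chromosomal groups, read-sharing sets and neighbours were added after seeing the data. The words caffeoyl and phenylalanine ammonia matched no annotation, and no lectin of other wording was found. No locus ID matched the reference gene table, so no sequence is shown. Alternatives were pseudocounts of 0.1 and 5, a filter at 5 RPKM or none, median-of-ratios scaling, transcript models, whole-number counts, folds of 1.5 and 4 as the size rule, kinases included and, added afterwards, single loci left out. Computations ran in Python 3.11.15 (scipy 1.17.1, pandas 2.3.3, numpy 2.4.6, matplotlib 3.10.9). The procedures were tested on simulated whole counts with counting error alone, with changes placed at loci of at least 5 RPKM. That simulation does not cover divided reads or weakly expressed members such as LOC_Os08g28790 and LOC_Os12g09720.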

Additional observations from a re-analysis of the deposited data

How the results depend on the processing

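By the size rule, 1 member was higher and 2 were lower. The higher count became 4 with a pseudocount of 0.1 and 3 with a rule of 1.5-fold, and 0 with a pseudocount of 5, the filter at 5 RPKM, whole-number counts or a rule of 4-fold. The lower count became 4 with a rule of 1.5-fold and 1 with a pseudocount of 5, the filter at 5 RPKM, a rule of 4-fold or without LOC_Os03g28160. The dirigent median of -0.21 became 0.21 with the filter at 5 RPKM, 0.057 without a filter, -0.37 with whole-number counts and -0.083 without LOC_Os01g61890 and LOC_Os04g22900. The lectin median of 0.25 became 0.053 with the filter at 5 RPKM and -0.024 with transcript models. The fold of total dirigent reads, 0.854, became 1.03 with whole-number counts and 1.08 without LOC_Os01g61890. That of lectin reads, 1.03, became 0.864 without LOC_Os04g22900 and 1.19 without LOC_Os03g28160. The filter, whole-number and left-out-locus settings change which loci enter, and transcript models change the unit counted. Pseudocounts change the scale of the difference, and fold limits change the size rule itself. Median-of-ratios scaling, with a log2 factor of 0.00908, changed neither count. The lower count was 3 with a pseudocount of 0.1 and with transcript models. The lectin median was 0.116 without a filter, 0.140 with whole-number counts or without the 2 long loci and 0.157 with a pseudocount of 5, which made the dirigent median -0.117. Of 42 alternatives over the 14 named members, 0 reversed. These were the pseudocounts and the scaling, and this outcome was fixed in advance. A pseudocount added to both libraries cannot change the direction of a difference. The scaling factor of 0.00908 is smaller than the smallest of these differences in size, -0.033 at LOC_Os05g43240. The 0 is therefore no support for the directions. A pseudocount of 5 took LOC_Os08g28790 to -0.41 and LOC_Os12g09720 to 0.30, which ends both calls, and LOC_Os03g28160 to -1.45, the one shift larger than the distance from a fold to the limit of its counting interval among the named members with a count above 0 in both libraries. Including kinases added no locus. No paired analysis was possible because each genotype has 1 library, and for the same reason no library could be left out.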
